A study of Mus musculus with 24 samples.

Results

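Translation initiation factors other than eIF2 were followed across 24 RNA-seq libraries of cultured mouse lung adenocarcinoma cells. The set was taken by name: gene symbols that start with Eif1 to Eif6 in both deposited count tables, without the eIF2 subunits (Eif2s), the eIF2 kinases (Eif2ak) and pseudogenes, and with at least 1 CPM (a count per 1e6 counts of the library) in at least 4 libraries of a table. This gave 46 genes out of 50 that matched the name and 41527 symbols in the 2 tables. Eif4e1b, Eif4a3l1, Eif4a3l2 and Eif2c5 matched the name but did not reach that level. All 46 members also passed the filter on low counts in both tables.

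The labels describe primary tumour cells in tissue culture, and the design text says that tumour cells were sorted as GFP+/CD45- and asks about the integrated stress response, a program started by phosphorylation of eIF2α. S/S cells carry eIF2α with its serine, and A/A cells carry eIF2α with alanine at that phosphorylation site. A first table holds 4 S/S libraries with scramble shRNA (shControl) and 4 S/S libraries with Atf4 shRNA (shAtf4). A second table holds 4 libraries for each genotype with control siRNA (siControl) and 4 for each with siRNA against Chchd10 (siChchd10). The genotype field reads WT for all control groups, A/A included, and names only the knockdown elsewhere, so the cells' genotype was taken from the sample titles. No label states how many tumours or clones each genotype stands for. A/A against S/S therefore compares these cell populations, and genotype and cell population cannot be told apart. Whether replicates are independent cultures is not in the labels either, and p-values thus cover only the spread between these libraries, which may be technical.

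Initiation factors bring the small ribosomal subunit, the initiator tRNA and the mRNA together and place them at a start codon. eIF4F binds the cap and unwinds the leader, eIF3 holds the assembly on the small subunit, eIF1, eIF1A and eIF5 govern start codon choice, and eIF5B joins the large subunit. eIF2B reloads eIF2 with GTP, and it is the factor that phosphorylated eIF2 holds back in the integrated stress response. The eIF4E-binding proteins keep eIF4E from eIF4G when mTOR is inactive, and Eif4ebp1 is a known target gene of the transcription factor ATF4.

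Total counts per library, in units of 1e6, ranged from 14.1 to 70.9 in the shRNA table and from 42.9 to 75.4 in the siRNA table. The targeted mRNAs were checked first. Atf4 stood at 565, 835, 818 and 498 CPM in shControl and at 302, 237, 319 and 225 CPM in shAtf4 libraries, a log2 fold change of -1.33 (SE 0.20, adjusted p = 0.0327) by edgeR. Chchd10 changed after siChchd10 by -2.76 (SE 0.10) in S/S and by -2.27 (SE 0.12) in A/A cells. Its mean went from 42.6 to 6.30 CPM in S/S and from 8.93 to 1.83 CPM in A/A cells, so A/A cells started from a lower level. Leukocyte markers summed to at most 4.79 CPM in any library (8 genes), fibroblast markers to at most 18.6 CPM (8 genes) and endothelial markers to at most 3.10 CPM (6 genes). Ptprc, which encodes CD45, was at 0 in the shRNA libraries and at most 0.239 CPM in the others. Of 11 epithelial and lung adenocarcinoma markers, 6 were over 1 CPM in the shRNA groups and 8 to 10 in the siRNA groups. Nkx2-1, a defining lung lineage gene, was at 0 in all 8 shRNA libraries and between 31.2 and 137 CPM in the siRNA libraries, while Cdh1 was at 293 CPM or more in all of them. Ddx3y, on the Y chromosome, went from 44.4 to 53.5 CPM in shControl to 0.645 to 1.34 CPM in shAtf4 libraries, so these groups differ beyond the targeted gene. Replicate 4 of both shRNA groups stood apart from replicates 1 to 3 on the first principal component (46.0 and 36.1 against -20.6 to -5.47), and A/A siControl replicate 1 stood apart in the siRNA table (36.6 against 59.2 to 66.9 in its group).

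Promoters were read to see whether members that moved together share letters near their starts. RefSeq windows of GRCm38.p6, 250 bases before to 50 after a start, matched 35 of the 46 members. Eif1a, Eif2b3, Eif3e, Eif3h, Eif3i, Eif3j2, Eif4e3, Eif4ebp1, Eif4ebp3, Eif4g2 and Eif6 had no window. They were not searched, so nothing is said here of ATF4 words at Eif4ebp1. The E-box CACGTG holds the letters that MYC and USF proteins are known to bind. It stood in a window of 10 of those 35 members (28.6%) and in 8.09% of 27025 genes in the table. The members were kept for their counts, and the 27025 genes were not filtered by expression. Shares of members and of these genes, here and for the words below, are therefore of unlike sets. The E-box word reads the same on both strands. The windows with an E-box included those of Eif3f, Eif3k, Eif4a1, Eif4g1 and Eif4h, shown here as examples that changed in at least 1 comparison below. Eif3a, Eif4e, Eif5a and Eif5a2 had an E-box and changed in at least 1 comparison too, and are not printed. Each line is 60 bases, 5′ to 3′ on the gene's strand, wholly before the start that RefSeq gives, with the E-box in capitals.
Eif3f: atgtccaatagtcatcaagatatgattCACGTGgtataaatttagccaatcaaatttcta
Eif3k: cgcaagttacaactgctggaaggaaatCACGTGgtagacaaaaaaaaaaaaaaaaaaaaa
Eif4a1: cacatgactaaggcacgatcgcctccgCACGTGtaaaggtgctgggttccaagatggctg
Eif4g1: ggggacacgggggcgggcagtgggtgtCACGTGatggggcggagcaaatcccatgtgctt
Eif4h: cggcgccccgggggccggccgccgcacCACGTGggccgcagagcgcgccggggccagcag
In GRCm38.p6 these stretches lie at chr7:108934320-108934379 (plus strand), chr7:28981900-28981959 (minus), chr11:69672580-69672639 (minus), chr16:20672646-20672705 (plus) and chr5:134639473-134639532 (minus). The ATF4-C/EBP word TGATGNAA was found for 0 of the 35 members and in 4.51% of all genes, the ATF/CRE word TGACGTCA in 0 and in 2.03%, and the NRF1 motif in 1 (Eif3k) and in 1.07%. Both strands were searched. A match says only that these letters are in the window.

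Levels among the members spanned 3 orders of magnitude. In S/S siControl cells Eif4g2 was the most counted member at 1509 ± 69.1 CPM (SD, n = 4), followed by Eif4b at 1213 ± 53.6 CPM, and Eif3j2 was lowest at 1.04 ± 0.101 CPM. Per kilobase of exon, the eIF3 subunits other than Eif3j2 ran from 14.7 CPM per kb for Eif3j1, a loosely bound subunit, to 323 CPM per kb for Eif3h, a 21.9-fold span with a median of 150.1. The same 2 genes were lowest and highest in all 6 groups, with spans of 15.4-fold to 25.6-fold. The divisor is the union of annotated exons, 5413 bases for Eif3j1 and 1295 bases for Eif3h. The spans include this difference in length, and they are no measure of subunit proportions. All members together took 1.07% to 1.30% of counts in the siRNA libraries. The spread between replicates differed by table: the median coefficient of variation over the 46 members was 2.94% to 6.24% in the siRNA groups and 15.7% and 19.3% in the shRNA groups.

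A/A cells were compared with S/S cells under siControl to ask which initiation factor mRNAs go with the eIF2α genotype. Of the 46 members, 10 were higher and 27 lower in A/A cells, against 35.6% of all 18138 genes tested that were higher and 34.7% that were lower. Values in parentheses are log2 fold changes from edgeR with their standard error (SE) and, where printed, the adjusted p. The median member was at -0.24 on the log2 scale and the median gene near 0. In bulk libraries fewer cells of a kind and less of an mRNA per cell cannot be told apart. The 11 epithelial markers summed to 5394 to 6023 CPM in S/S and 4532 to 4660 CPM in A/A siControl libraries, with members in both directions. The means of Krt8 (2145 and 1178 CPM), Krt18 (1751 and 1074), Krt19 (1026 and 840.1) and Epcam (8.93 and 1.44) were lower in A/A cells, and those of Nkx2-1 (37.4 and 115), Cdh1 (603 and 982) and Sftpb (2.59 and 290.2) were higher. Y-linked genes summed to 119 to 144 and 344 to 380 CPM, and the part of these genes in the differences was not tested. The heat map of the siRNA libraries shows these shifts library by library.

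**Figure D1:**
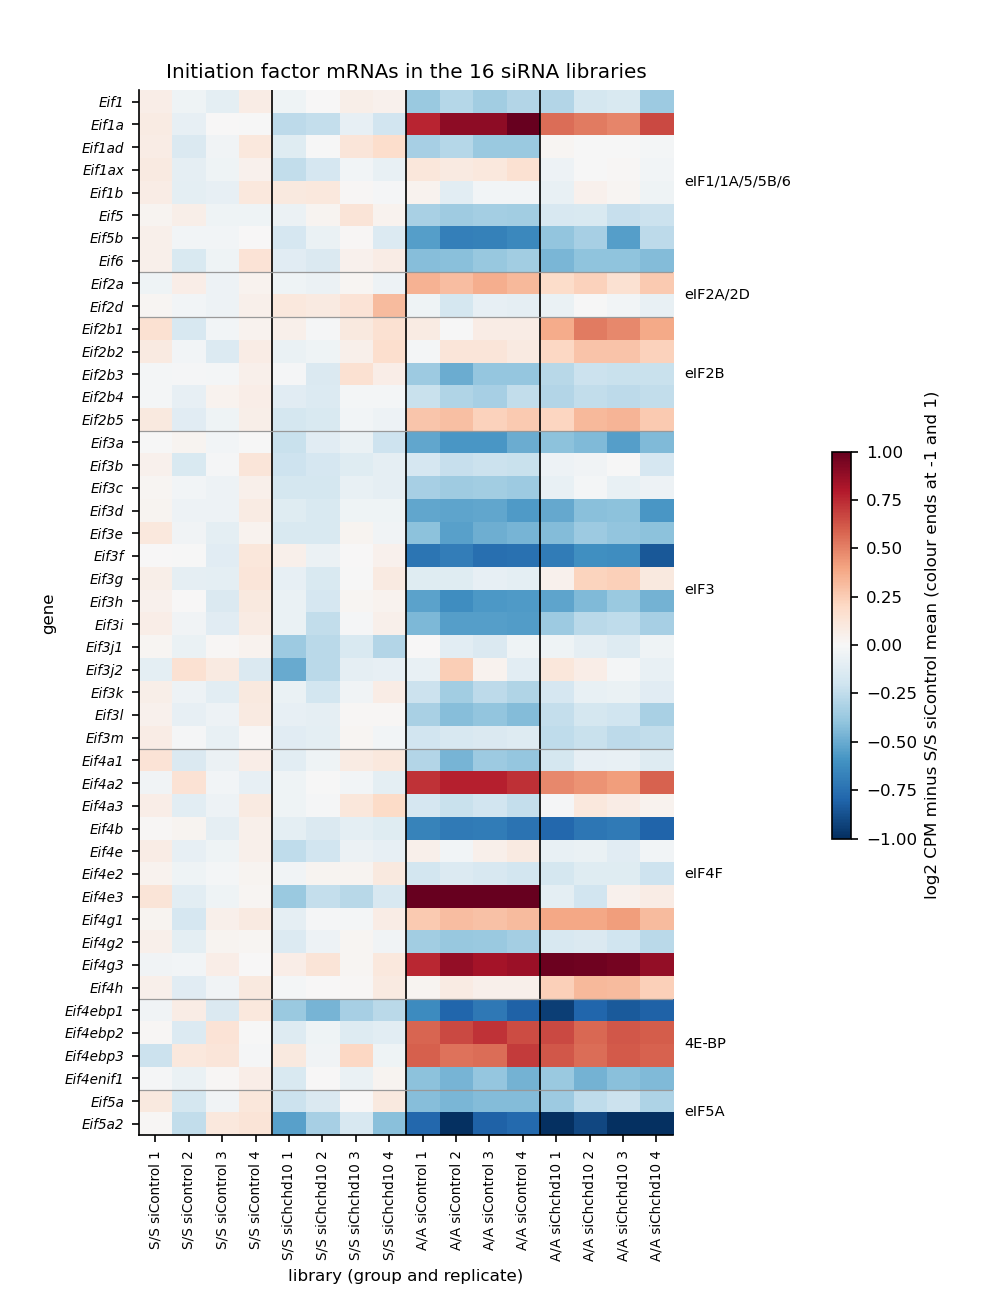
Each row is 1 of the 46 members by role, each column 1 of the 16 siRNA libraries, and the colour is log2 CPM minus the mean of the 4 S/S siControl libraries (red higher, blue lower, colours end at -1 and 1). The A/A columns are blue for most eIF3 rows and red for Eif1a, Eif4a2, Eif4g3 and Eif4ebp2, and Eif4e3 is dark red in A/A siControl only.

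Of the 14 eIF3 subunits, the scaffold of the small subunit complex, 11 were lower in A/A siControl cells, 0 were higher and 3 (Eif3g, Eif3j1 and Eif3j2) did not pass. Of all genes tested, 34.7% were lower and 35.6% higher. Eif3f was at 200.5, 199, 184 and 216 CPM in S/S and at 121, 124, 118 and 119 CPM in A/A libraries, and the groups did not overlap. Its log2 fold change was -0.73 (SE 0.048, adjusted p = 7.73e-14). Eif3h was at 430.5, 418, 377 and 446 CPM in S/S and at 288, 272, 281 and 281 CPM in A/A libraries, again without overlap (-0.58, SE 0.049). Eif3a, the large core subunit, was lower by a similar amount (-0.54, SE 0.043), and Eif3b, another core subunit, by less (-0.21, SE 0.048). Summed over the 14 genes, eIF3 mRNA took 4142 ± 159 CPM in S/S siControl and 3091 ± 53.0 CPM in A/A siControl libraries. In the same comparison 8 of 10 elongation and release factors tested were lower and 1 higher, with Gspt2 at -1.75, Eef2k at -0.58 and Gspt1, which encodes the release factor eRF3a, at 0.35.

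The start codon and subunit joining factors were lower in 5 of 8 cases and higher in 2, against 34.7% and 35.6% of all genes. Eif5b was at 296, 281, 280.4 and 287 CPM in S/S and at 195, 178, 179 and 183 CPM in A/A libraries (-0.64, SE 0.05, adjusted p = 4.32e-12). Eif5, the GTPase activator of eIF2, stood at -0.34, Eif1 at -0.33, Eif6, which keeps the large subunit from joining early, at -0.40, and Eif1ad at -0.34. Eif1a went the other way. It was at 107, 95.7, 101 and 101 CPM in S/S and at 172, 188, 188 and 204 CPM in A/A libraries (0.89, SE 0.05, adjusted p = 3.01e-15), so every A/A library lay above every S/S library. Its X-linked paralogue Eif1ax, which encodes nearly the same protein, differed by only 0.11 (SE 0.044, adjusted p = 0.0235), with overlapping libraries, and did not pass with DESeq2 (adjusted p = 0.0582) or with RLE scaling (0.0552), nor without any 1 of S/S siControl replicates 2 and 3 or A/A siControl replicates 3 and 4. Eif1b did not pass (-0.03, SE 0.056, adjusted p = 0.644). Reads that fit both Eif1a and Eif1ax could be assigned either way, and the counting program is not given in the sources used here.

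Within eIF4F the paralogues moved apart. Eif4a1, the main cap helicase, was at 1024, 845, 893 and 975 CPM in S/S and at 759.7, 673, 723 and 713 CPM in A/A libraries (-0.38, SE 0.055). Eif4a2, its close relative, was at 254, 288, 257 and 247 CPM in S/S and at 431, 448, 447 and 434 CPM in A/A libraries (0.75, SE 0.046, adjusted p = 1.25e-14). The ratio of Eif4a2 to Eif4a1 per kilobase was 0.157 ± 0.0238 in S/S siControl and 0.341 ± 0.0222 in A/A siControl libraries (SD, n = 4). Rfc4 overlaps Eif4a2, and Rev1 overlaps Eif5b, on the other strand, and whether counting used strand is not known here. Eif4a3, the helicase of the exon junction complex, was lower (-0.21, SE 0.048), and Eif4b, a helicase helper, was the member of this group with the largest fall, from 1213 ± 53.6 to 744 ± 14.6 CPM (-0.71, SE 0.041, adjusted p = 3.76e-15). Eif4h, the other helper, did not pass (0.05, SE 0.044, adjusted p = 0.309).

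The eIF4G scaffolds also differed in direction. Eif4g1 was higher in A/A cells (0.29, SE 0.048, adjusted p = 3.95e-06) and Eif4g2, which encodes DAP5 and lacks the eIF4E site, was lower (-0.36, SE 0.044, adjusted p = 3.14e-08), so that their ratio per kilobase went from 1.45 ± 0.0584 to 0.917 ± 0.0202. Eif4g3 was at 85.7, 86.1, 91.9 and 88.1 CPM in S/S and at 148, 162, 157 and 159 CPM in A/A libraries (0.83, SE 0.039, adjusted p = 4.22e-17). Of the cap-binding genes, Eif4e itself did not pass (0.043, SE 0.044, adjusted p = 0.393), Eif4e2, whose product is known as a repressor at the cap, was lower (-0.16, SE 0.038), and Eif4e3 was higher. Eif4e3 was at 13.4, 11.4, 11.9 and 12.4 CPM in S/S and at 25.6, 28.7, 27.2 and 26.2 CPM in A/A libraries (1.13, SE 0.066, adjusted p = 4.29e-15), the largest rise of any member. Its counts are low beside those of Eif4e, and an annotated gene on the same strand overlaps it.

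All 4 genes of the eIF4E-binding group differed, 2 in each direction, against 35.6% of all genes higher and 34.7% lower. Eif4ebp1 was at 159, 171, 148 and 175 CPM in S/S and at 106, 93.8, 99.4 and 93.2 CPM in A/A libraries (-0.74, SE 0.052, adjusted p = 7.98e-13), and Eif4enif1, which encodes the eIF4E carrier 4E-T, was lower too (-0.43, SE 0.042). Eif4ebp2 was at 51.6, 46.6, 56.3 and 51.2 CPM in S/S and at 76.7, 80.9, 84.9 and 80.9 CPM in A/A libraries (0.65, SE 0.047, adjusted p = 4.58e-13). Eif4ebp3, at under 11 CPM throughout and overlapped by an annotated read-through gene, was higher (0.59, SE 0.079). The ratio of Eif4ebp2 to Eif4ebp1 per kilobase was 0.110 ± 0.0164 in S/S and 0.286 ± 0.0234 in A/A siControl libraries. Atf4 mRNA in these libraries was at 473 to 555 CPM in S/S and 151 to 185 CPM in A/A cells. What this difference has to do with the eIF4E-binding genes was not tested in these libraries.

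eIF2B, eIF2A, eIF2D and eIF5A completed the comparison. Of the 5 eIF2B subunits, Eif2b5, the catalytic one, was higher (0.26, SE 0.046, adjusted p = 8.76e-06), Eif2b3 (-0.41) and Eif2b4 (-0.28) were lower, and Eif2b1 and Eif2b2 did not pass (0.054 and 0.076). Eif2a, which encodes a single-chain factor unrelated to the eIF2 trimer, was higher (0.33, SE 0.038), and Eif2d did not pass (-0.10, adjusted p = 0.0672). Eif5a was at 691 ± 61.9 CPM in S/S and 509 ± 5.13 CPM in A/A libraries (-0.44, SE 0.06), and its scarce paralogue Eif5a2 at 10.4 ± 1.17 and 5.66 ± 0.654 CPM (-0.88, SE 0.10). Outside the name rule, 8 of 26 regulators and partners of initiation were higher and 10 lower, against 35.6% and 34.7% of all genes. Rps6kb2, an S6 kinase gene (0.82), and Gigyf1 (0.70) led the higher ones, and Pabpc4, a poly(A)-binding protein gene (-0.71), and Ddx3x, a helicase gene (-0.55), the lower ones. Of 10 genes for eIF2, its kinases and its phosphatase subunits, 6 were higher and 3 lower, against the same 35.6% and 34.7%. Without A/A siControl replicate 1, the counts of members higher and lower were 10 and 27, against 34.8% and 33.4% of genes. Against a minimum fold of 1.2 in place of any difference, 7 members were higher and 19 lower. Of 18138 genes, 4460 were higher and 4119 lower, which is 47.3% in either direction.

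The panels of paralogous genes show the same libraries pair by pair.

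**Figure D2:**
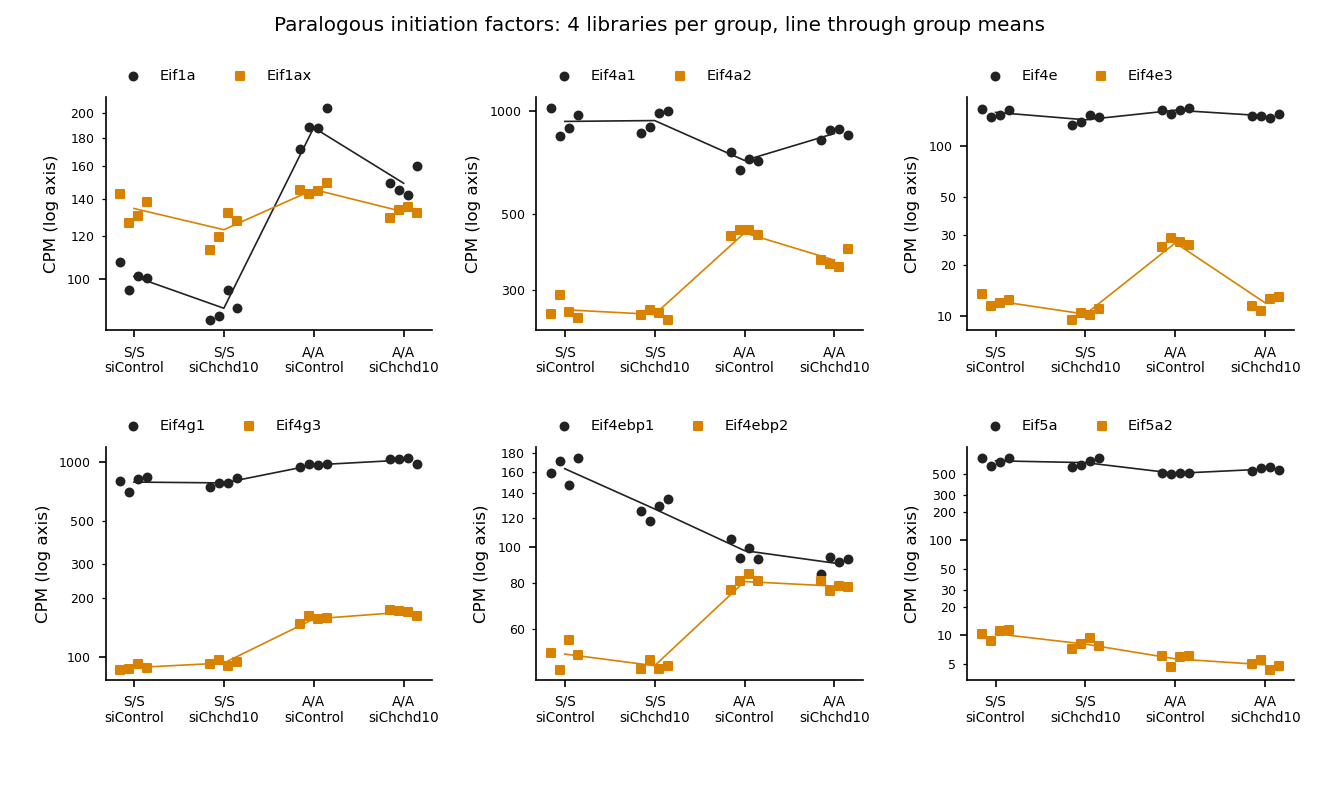
Each point is the CPM of 1 siRNA library on a log axis, with 4 libraries per group and a line through the group means, for 6 pairs of paralogues. In A/A siControl libraries Eif4a2 rose and Eif4a1 fell against S/S siControl, Eif4ebp2 rose and Eif4ebp1 fell, and Eif4e3 returned near its S/S level with siChchd10.

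The same genotype comparison under siChchd10 used 8 other libraries. Here 15 members were higher and 23 lower in A/A cells, against 34.7% of all genes higher and 35.8% lower. Each comparison's own values are set side by side below for the members that led the first, and for Eif6 and Eif4g1. Eif4g3 stood at 0.87 (SE 0.039), Eif1a at 0.75 (SE 0.05), Eif4ebp2 at 0.72 (SE 0.047), Eif4ebp3 at 0.53 (SE 0.079), Eif4a2 at 0.53 (SE 0.046) and Eif4g1 at 0.39 (SE 0.048). Among the lower members, Eif5a2 stood at -0.73 (SE 0.10), Eif3f at -0.71 (SE 0.048), Eif4b at -0.64 (SE 0.041), Eif4ebp1 at -0.49 (SE 0.052), Eif3h at -0.41 (SE 0.049) and Eif6 at -0.39 (SE 0.051). Eif5b stood at -0.29 (SE 0.05), against -0.64 under siControl. Some members had other values under siChchd10: Eif4e3 stood at only 0.22 (SE 0.069), and of eIF3, 8 subunits were lower and 2 higher (Eif3g and Eif3j1). Of eIF2B, Eif2b1 (0.37), Eif2b2 (0.22) and Eif2b5 (0.39) were higher, and Eif2b3 (-0.25) and Eif2b4 (-0.19) were lower. Among the paralogues, Eif1ax (0.11) was higher, Eif1 (-0.26), Eif4e2 (-0.19), Eif4g2 (-0.14) and Eif5a (-0.23) were lower, and Eif1b (-0.066), Eif3j2 (0.25) and Eif4e (0.077) did not pass. Eif4a1 passed narrowly (-0.13, SE 0.055, adjusted p = 0.0447) and did not pass with DESeq2 (adjusted p = 0.0507) or RLE scaling (0.0519), nor without any 1 of 7 of the 8 libraries (S/S siChchd10 replicate 1 was the exception). Eif1ax did not pass without S/S siChchd10 replicate 1 or A/A siChchd10 replicate 2, and Eif4g2 without A/A siChchd10 replicate 4. Against the minimum fold of 1.2, 8 members were higher and 8 lower. Of 18138 genes, 4283 were higher and 4450 lower, which is 48.1% in either direction.

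**Figure D3:**
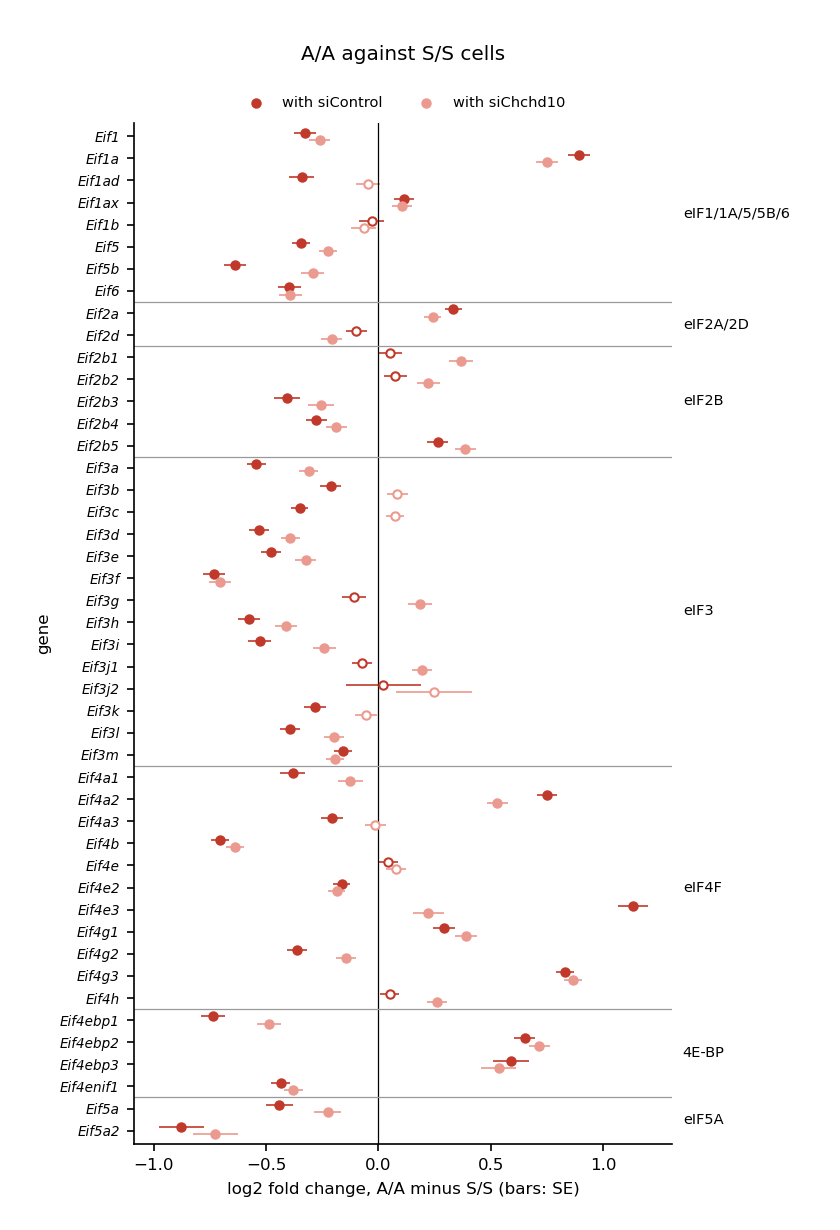
Log2 fold change of A/A minus S/S cells for the 46 members by role, with siControl (dark) and with siChchd10 (light); bars are standard errors and filled points passed at an adjusted p of 0.05. Eif1a, Eif4a2, Eif4g3 and Eif4ebp2 lie over 0.5 in both, Eif3f, Eif4b and Eif5a2 under -0.6 in both, and Eif4e3 is at 1.13 with siControl and 0.22 with siChchd10.

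Chchd10 encodes a mitochondrial intermembrane space protein. In S/S cells 1 member rose (2.17%) and 11 fell (23.9%) after siChchd10, against 15.0% and 13.0% of all genes tested. The other 34 of 46 members did not pass, nor did 13062 of 18138 genes. All 12 changes were small, and none passed a test against a minimum fold of 1.2, which 7.35% of genes passed in either direction. Eif4ebp1 went from 159, 171, 148 and 175 CPM to 126, 118, 129.5 and 135 CPM without overlap (-0.36, SE 0.052, adjusted p = 4.46e-06). Eif3j1 went from 80.8, 76.2, 80.3 and 81.9 CPM to 62.0, 66.1, 71.9 and 65.1 CPM (-0.27, SE 0.045, adjusted p = 3.40e-05). Eif5a2 (-0.36, SE 0.10), Eif4e3 (-0.26, SE 0.07), Eif1a (-0.19, SE 0.051) and Eif3a (-0.15, SE 0.043) were the other large falls. Eif3b, Eif3c, Eif4e, Eif1ax and Eif4b fell by 0.12 to 0.15. Eif1ax and Eif4e did not pass without any 1 of replicates 1 and 4 of siControl or 1 and 2 of siChchd10. Eif3b did not pass without siControl replicate 4 or siChchd10 replicate 1. Eif4b did not pass without any 1 of siControl replicates 1, 2 and 4 or siChchd10 replicates 2 and 4, without the filter on low counts, or with only these 2 groups fitted. The single rise was Eif2d (0.17, SE 0.047, adjusted p = 0.0084), a factor also linked to ribosome recycling, which did not pass without siChchd10 replicate 4. None of the 5 eIF2B subunits passed, with values from -0.10 (Eif2b5) to 0.070 (Eif2b1).

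In A/A cells siChchd10 raised 19 members and lowered 6, against 26.5% of genes tested that rose and 27.2% that fell. Eif4e3 had the largest change: it fell from 25.6, 28.7, 27.2 and 26.2 CPM to 11.5, 10.7, 12.6 and 12.9 CPM, with no overlap (-1.17, SE 0.065, adjusted p = 1.62e-14), to a level near that of S/S siControl libraries (11.4 to 13.4 CPM). Eif1a fell from 188 ± 13.3 to 149 ± 7.82 CPM (-0.33, SE 0.049) and Eif4a2 from 440.0 ± 8.91 to 366 ± 19.4 CPM (-0.27, SE 0.045). Eif1ax (-0.13, SE 0.044), Eif2a (-0.13, SE 0.038) and Eif4e (-0.11, SE 0.044, adjusted p = 0.0363) fell by less, and the Eif4e call did not pass with DESeq2 (adjusted p = 0.0715), RLE scaling (0.0710) or without the filter on low counts (0.0862), nor without any 1 library of these 2 groups other than A/A siControl replicate 2. Eif1ax did not pass without A/A siControl replicate 4 or A/A siChchd10 replicate 1, and Eif2a without A/A siChchd10 replicate 3.

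The rises in A/A cells were spread over the roles. Eif2b1, a regulatory subunit of eIF2B, went from 45.5, 42.7, 45.3 and 45.1 CPM to 55.7, 61.6, 60.0 and 56.0 CPM (0.38, SE 0.053, adjusted p = 5.55e-07), and Eif2b2 (0.17, SE 0.052) and Eif2b3 (0.17, SE 0.059) rose with it, while Eif2b4 and Eif2b5 did not pass (0.014 and 0.022). Of the eIF3 subunits 7 of 14 rose and 0 fell, led by Eif3c, a core subunit, which went from 449, 439.7, 443 and 438 CPM to 536, 556, 536 and 544 CPM (0.30, SE 0.038, adjusted p = 2.07e-07). Summed eIF3 mRNA was 3091 ± 53.0 CPM before and 3384 ± 63.6 CPM after siChchd10. The helicases Eif4a1 (0.26, SE 0.055) and Eif4a3 (0.26, SE 0.048), and Eif5b (0.26, SE 0.05), Eif1ad (0.34, SE 0.054) and Eif4h (0.23, SE 0.043) rose too. Eif4g2 (0.17), Eif5a (0.15) and Eif4g3 (0.12) rose by less. The Eif5a call ended without A/A siControl replicate 2, A/A siChchd10 replicate 2 or A/A siChchd10 replicate 3. None of the 4 eIF4E-binding genes passed, Eif4ebp1 included (-0.11, SE 0.052, adjusted p = 0.0744), but Eif4ebp1 passed as lower when only these 2 groups were fitted (-0.11, adjusted p = 0.0391). The Eif4a2 to Eif4a1 ratio per kilobase was 0.341 ± 0.0222 before and 0.236 ± 0.0176 after siChchd10. Epithelial markers summed to 4532 to 4660 CPM in A/A siControl and to 5144 to 5655 CPM in A/A siChchd10 libraries. The mean of Sftpb went from 290.2 to 1177 CPM, and those of Krt8 (1178 to 1069), Krt18 (1074 to 963) and Krt19 (840.1 to 763) went down. RNAs without a poly(A) tail summed to 658 to 685 and 313 to 486 CPM, nearly all of it Malat1 (mean 669 and 407 CPM). The other genes of that list averaged at most 2.42 CPM (Rpph1) and went in both directions. The part of these RNAs in the changes was not tested. Without A/A siControl replicate 1, 19 members rose and 5 fell, against 26.5% and 24.6% of genes. Only Eif2b1 and Eif4e3 passed against the minimum fold of 1.2, which 23.7% of genes passed in either direction.

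Of the genes outside the name rule, 12 of 26 regulators and partners of initiation rose in A/A cells and 5 fell, against 26.5% and 27.2% of all genes. Gigyf1, a partner of eIF4E2, was lowered the most (-0.77), followed by Rps6kb2, an S6 kinase (-0.45), and the largest rises were those of Dhps, the first enzyme of eIF5A hypusination (0.33), and Pdcd4, an inhibitor of eIF4A (0.30). In S/S cells 1 of these 26 rose and 3 fell, against 15.0% and 13.0% of all genes.

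Whether siChchd10 acted differently in the 2 genotypes was tested as an interaction (A/A minus S/S effect). It was positive for 17 members and negative for 2, against 16.7% and 18.9% of all genes tested, and the median member was at 0.14 and the median gene at -0.015. Of the 14 eIF3 subunits 8 had a positive and 0 a negative interaction. Eif3c stood at 0.42 (SE 0.054, adjusted p = 6.28e-07), having fallen in S/S (-0.13) and risen in A/A cells (0.30). Eif3b, at 0.30 (SE 0.067, adjusted p = 0.001), also fell in S/S (-0.15, a call that ended without either of 2 libraries) and rose in A/A cells (0.15). The other large positive values were those of Eif5b (0.35, SE 0.071), Eif2b1 (0.31, SE 0.075), Eif1ad (0.29, SE 0.076) and Eif3g (0.29, SE 0.075). Eif4e3 (-0.91, SE 0.10, adjusted p = 2.31e-08) and Eif4a2 (-0.22, SE 0.064, adjusted p = 0.00829) were the negative ones. Eif4ebp1 was positive (0.25, SE 0.074, adjusted p = 0.00919), with values of -0.36 in S/S and -0.11 in A/A cells. Eif5a, also positive (0.22, SE 0.084), did not pass without any 1 of 8 libraries (replicates 1 and 4 of S/S siControl, 1 and 2 of S/S siChchd10, 2 and 4 of A/A siControl, and 2 and 3 of A/A siChchd10). Without A/A siControl replicate 1 the interaction was positive for 19 and negative for 3, against 17.3% and 17.4% of genes. Against the minimum fold only Eif3c and Eif4e3 passed, and 12.5% of genes did in either direction. Chchd10 itself averaged 42.6 CPM in S/S and 8.93 CPM in A/A siControl libraries. Its own interaction by edgeR was 0.49 (SE 0.16, adjusted p = 0.0205). What this starting level has to do with the interactions of the members was not tested.

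**Figure D4:**
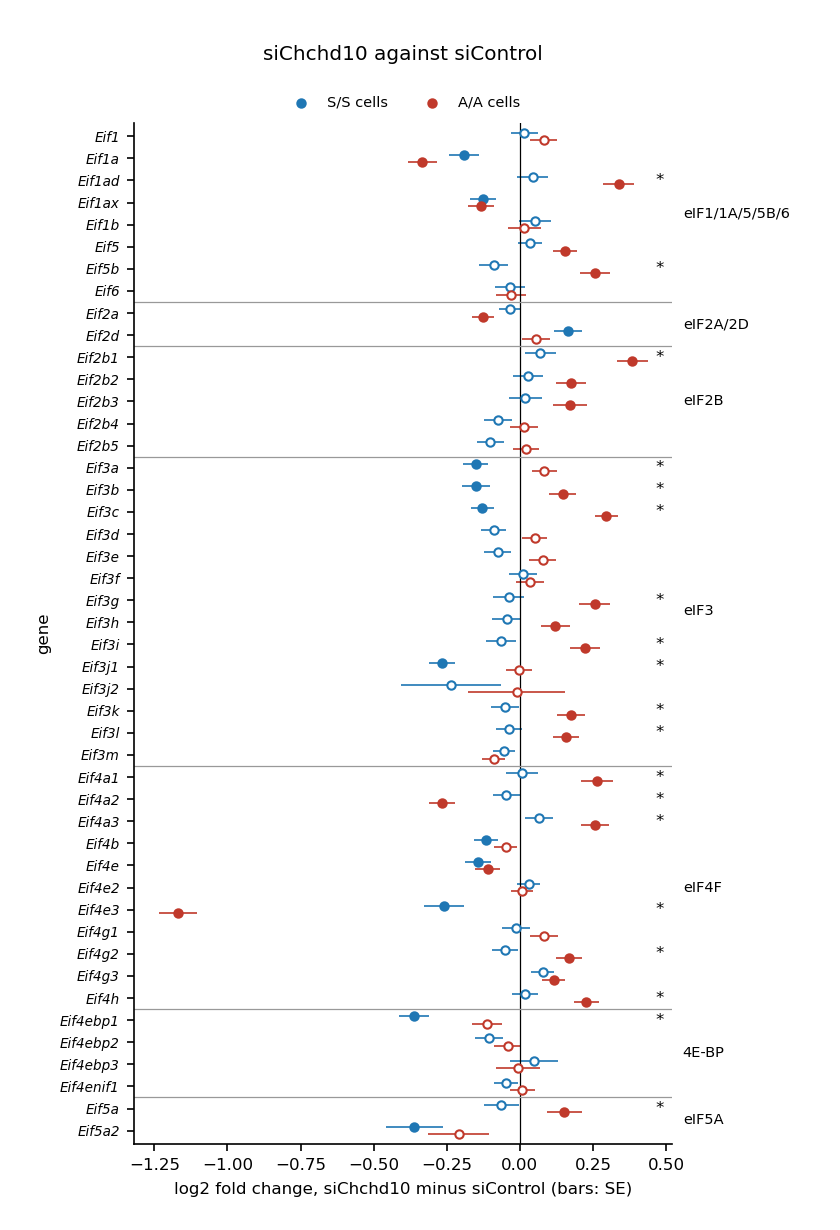
Log2 fold change of siChchd10 minus siControl for the 46 members by role, in S/S (blue) and A/A cells (red); bars are standard errors, filled points passed at an adjusted p of 0.05, and a star marks an interaction that passed. Most eIF3 points are left of 0 in S/S and right of 0 in A/A cells, and Eif4e3 in A/A cells lies farthest from 0, at -1.17.

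Atf4 knockdown in S/S cells addressed which initiation factor mRNAs depend on this transcription factor. Without regard to replicate numbers 0 members rose and 1 fell, against 0.150% of 14697 genes that rose and 0.388% that fell. By edgeR 4 of 46 members had an unadjusted p under 0.05, and so did 1549 of the 14697 genes. The member that fell was Eif4g3, at 4.72, 3.14, 3.30 and 3.39 CPM in shControl and 1.78, 1.13, 0.945 and 0.960 CPM in shAtf4 libraries, without overlap (-1.63, SE 0.27, adjusted p = 0.0408). It did not pass against the minimum fold of 1.2 (adjusted p = 0.0642), which 0.211% of genes passed in either direction. Its call ended when any 1 of shControl replicates 1, 2 or 3 or shAtf4 replicates 2, 3 or 4 was left out. Y-linked genes summed to 111 to 135 CPM in shControl and 1.46 to 3.56 CPM in shAtf4 libraries, and what this difference between the groups has to do with Eif4g3 was not tested. Eif4ebp1 did not pass: it was at 132, 201, 192 and 88.6 CPM in shControl and at 131, 156, 168 and 95.5 CPM in shAtf4 libraries, with wide overlap (-0.16, SE 0.27, adjusted p = 0.894). None of the 5 eIF2B subunits passed, with values from 0.088 (Eif2b5) to 0.37 (Eif2b4).

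Same-numbered shRNA libraries deviated together (r 0.241 to 0.789), most strongly for replicate 4 at 0.789. Differently numbered pairs ran from -0.586 to 0.314, so the ranges overlapped. With the replicate number as a block 10 members rose and 2 fell, against 10.1% of genes in each direction. The 2 that fell were Eif4g3 (-1.63, adjusted p = 9.37e-05) and Eif4ebp3 (-0.40, adjusted p = 0.0427). The 10 that rose in this fit were Eif4e3 (0.58, adjusted p = 0.0274), Eif6 (0.44, adjusted p = 0.000893), Eif3b (0.38, adjusted p = 0.00057), Eif2b4 (0.37, adjusted p = 0.00588), Eif5a (0.33, adjusted p = 0.00289), Eif3g, Eif3d, Eif4enif1, Eif2d and Eif3i, the last 5 between 0.18 and 0.24. Eif4ebp1 did not pass in this fit either (-0.12, adjusted p = 0.269). Without replicate 4 of both groups, 6 rose (Eif2b4, Eif3b, Eif3g, Eif4a3, Eif5a and Eif6) and 1 fell (Eif4g3), against 5.58% and 6.14% of genes.

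Replicate 4 set much of the spread. In both shRNA groups it lay above replicates 1 to 3 for 28 of the 46 members and below them for 5. The same count was not made over all genes, so it is not shown to be particular to the members. Replicate 4 also stood apart on the first principal component of 1000 genes, which held 46.9% of their variance. Eif6 was at 111, 124, 128 and 266 CPM in shControl and at 164, 168, 200.3 and 291 CPM in shAtf4 libraries, with replicate 4 highest in each. Eif5a was at 557, 514, 621 and 1072 CPM and at 755, 672, 833 and 1115 CPM, and Eif4e3, Eif4ebp1, Eif3f, Eif3h and Eif4b were lowest in replicate 4 of both groups. Summed over all members, replicate 4 held 15322 CPM in shControl and 15394 CPM in shAtf4, and the other 6 libraries held 11100 to 13194 CPM.

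Eif4g3 (chr4:137991779-138207086, plus strand, GRCm38.p6) was far lower in the shRNA table than in the siRNA table, although all of these controls are labelled S/S. Its mean was 3.64 ± 0.728 CPM in S/S shControl and 88.0 ± 2.82 CPM in S/S siControl libraries. The genes on either side were counted at over 80 CPM in every library of both tables: Ece1 averaged 166 CPM in shControl and 115 CPM in S/S siControl, and Hp1bp3 averaged 219 and 167 CPM. Eif5a2 (1.05 to 1.80 and 8.74 to 11.3 CPM) and Eif4e3 (1.87 to 5.58 and 11.4 to 13.4 CPM) were also lower in the shRNA table. Eif3j2, a near copy of Eif3j1, was higher there (3.22 to 11.8 and 0.939 to 1.15 CPM). Symbols named as pseudogenes took 0.295% to 0.323% of counts in the shRNA table and 0.0805% to 0.1002% in the siRNA table. The tables were handled separately, so these levels were not tested against each other, and these genes were singled out after their values were seen.

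**Figure D5:**
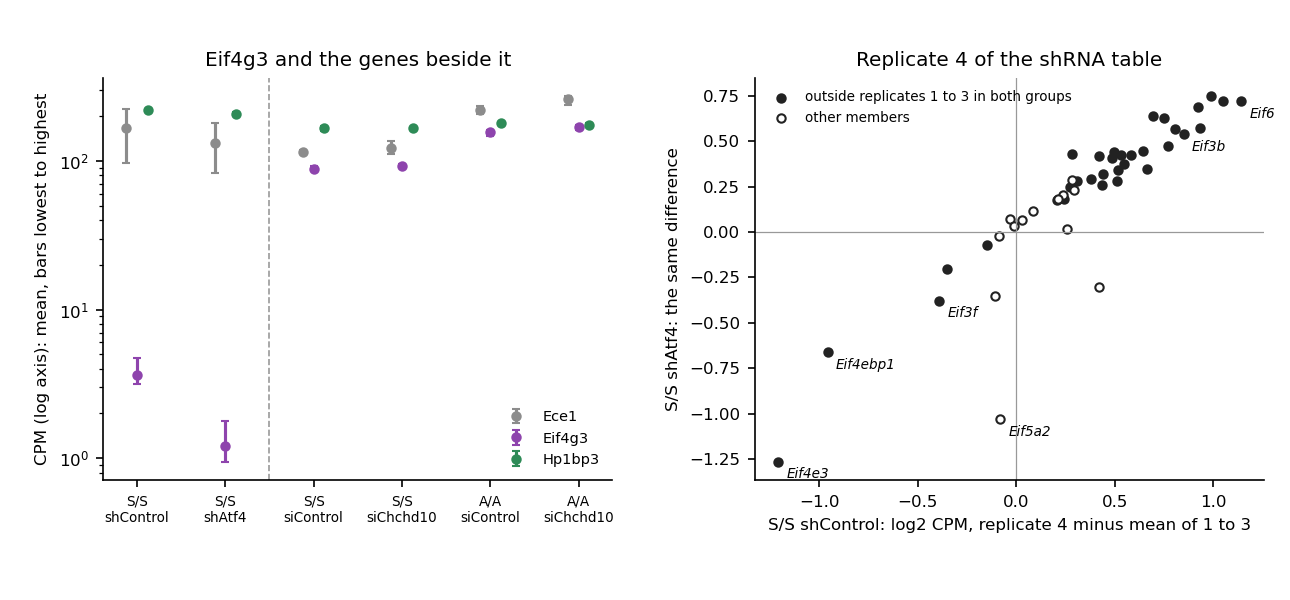
Left, mean CPM on a log axis of Eif4g3 and its flanking genes Ece1 and Hp1bp3 in the 6 groups (bars from the lowest to the highest of 4 libraries; the dashed line divides the 2 tables); Eif4g3 lies under 5 CPM in the shRNA groups and over 85 CPM in the siRNA groups. Right, log2 CPM of replicate 4 minus the mean of replicates 1 to 3 for each member in shControl (horizontal) and shAtf4 (vertical). Filled points were outside replicates 1 to 3 in both groups, 28 of them above. The same count was not made over all genes.

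Returning to the promoter windows, the 10 members with an E-box and the 25 without one were set side by side as a description. In A/A against S/S siControl cells 6 of the 10 were lower and 1 higher, with a median of -0.33, and 14 of the 25 were lower and 6 higher, with a median of -0.16, against 35.6% of all genes higher and 34.7% lower. After siChchd10 in A/A cells 4 of the 10 rose and 1 fell, and 11 of the 25 rose and 3 fell, against 26.5% and 27.2% of all genes. Of the 5 genes whose stretches are printed above, Eif3f, Eif3k and Eif4a1 were lower in A/A siControl cells, Eif4g1 was higher and Eif4h did not pass. Of the other genes with an E-box, Eif3a, Eif5a and Eif5a2 were lower, and Eif1b and Eif4e did not pass. Direction was thus not the same for all genes with these letters, though Eif4g1 was the only higher one.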

How the data were processed

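RNA-seq was analysed for 24 libraries in 6 groups of 4. Per the labels' protocols, libraries were made with a stranded total RNA kit. Values deposited by the authors are raw read counts for each gene, in 2 tables, and every column matched 1 sample by name. Per the submitters' processing notes, reads were placed on mm10 and DESeq2 1.24.0 was among the tools. For the aligner, counter, strand setting and annotation the entry is: not given in the sources used here. Members that overlap another gene (for example Eif2a and Serp1, Eif4a2 and Rfc4, Eif5b and Rev1) or have a near copy are therefore uncertain.

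Counts were tested with edgeR 4.0.16 (R 4.3.3): filterByExpr, TMM scaling and robust quasi-likelihood tests, on each table separately, the siRNA table with 1 term per group. Benjamini-Hochberg adjustment ran over all 14697 or 18138 genes tested, and a gene rose, fell or differed at an adjusted p under 0.05. CPM is per 1e6 counts after TMM scaling, as mean ± SD of 4 libraries, and per kilobase of the exon union of GENCODE vM21. The script was tested on simulated data. Alternatives were DESeq2 1.42.0, RLE scaling, no filter, a CPM filter, a replicate block, a minimum fold, no robust estimation, only the compared groups and each library left out. Depth was 14.1 to 75.4 in units of 1e6 counts per library.

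Labels number the replicates alike across groups. Deviations from group means correlated in all 4 same-numbered pairs of the shRNA table (r 0.241 to 0.789), but 6 of 12 differently numbered pairs were over 0.1 too. In the siRNA table r of same-numbered pairs ran from -0.171 to 0.157. The main fits of both tables took no account of the numbers, and the replicate block was an alternative. Any pairing in the shRNA table is read from the data and not from the labels.

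The rule for naming took up to 6 members per direction and comparison, and Eif4ebp1, eIF2B and the paralogue sets; not every paralogue that missed the threshold is printed for every comparison. Members, lists and tests were chosen with earlier results of these data known. Promoter sequences are from RefSeq (GRCm38.p6).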

Additional observations from a re-analysis of the deposited data

Results flagged for a closer look

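Among the 37 members named for a comparison, 222 sets of 4 libraries were checked for a library far from the other 3, and 16 (7.21%) held one. Chance gives about 1 in 20 for independent sets, but sets of different genes share the same libraries. The share is pooled over both tables, and most of the 16 were in the shRNA table. Replicate 4 of shControl lay far above the other 3 for Eif2b1 (57.4 CPM), Eif2b5 (139 CPM), Eif4a1 (1077 CPM), Eif1ad (81.4 CPM), Eif4a3 (191 CPM), Eif5b (324 CPM), Eif3b (555 CPM) and Eif6 (266 CPM). Replicate 4 of shAtf4 lay far above for Eif2b1 (56.6 CPM) and Eif3g (187 CPM) and far below for Eif4b (1065 CPM). Eif4g3 in shControl replicate 1 was high at 4.72 CPM. In the siRNA table the gaps were small: Eif2b1 (42.7 CPM) and Eif5a2 (4.68 CPM) were low in A/A siControl replicate 2, Eif2b3 was high in S/S siControl replicate 4 (20.2 CPM) and low in A/A siChchd10 replicate 1 (16.1 CPM).

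The siChchd10 effect differed between A/A and S/S cells by the interaction test of edgeR for 19 members. The difference (A/A minus S/S, log2) was 0.42 for Eif3c, 0.35 for Eif5b, 0.31 for Eif2b1, 0.30 for Eif3b, 0.29 for Eif1ad, Eif3g and Eif3i, 0.26 for Eif3j1 and Eif4a1, and 0.25 for Eif4ebp1. It was 0.23 for Eif3a and Eif3k, 0.22 for Eif4g2 and Eif5a, 0.21 for Eif4h, 0.20 for Eif3l and 0.19 for Eif4a3, which did not pass without A/A siChchd10 replicate 2. It was -0.22 for Eif4a2 and -0.91 for Eif4e3.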

How the results depend on the processing

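Counts of members that rose and fell stayed within 1.5 times in 186 recomputed cases and not in 20. Among named members, 113 recomputed calls were lost, 21 gained and 0 changed direction. In the shRNA table the replicate block gave 10 and 2, leaving out replicate 4 of both groups gave 6 risen, the minimum fold of 1.2 gave 0 fallen, and leaving out 1 library at a time gave 0 to 1 fallen. The minimum fold also gave 0 and 0 for siChchd10 in S/S cells, 1 and 1 for siChchd10 in A/A cells, 1 and 1 for the interaction, and 8 and 8 for A/A against S/S with siChchd10. Leaving out 1 library gave 0 to 1 risen (0 without S/S siChchd10 replicate 4) and 7 to 12 fallen (7 without S/S siControl replicate 4) for siChchd10 in S/S cells. The cause was not tested, apart from the minimum fold, which asks for larger changes. Of the siRNA libraries 3 of 16 libraries correlated best with their own number, and with the replicate block Eif4b in S/S cells (adjusted p = 0.0598) and Eif4a1 in A/A against S/S siChchd10 cells (0.0528) no longer passed. Members of a few CPM (Eif3j2, Eif5a2 and, in the shRNA table, Eif4g3 and Eif4e3) rest on few counts.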
